A study of Mus musculus with 8 samples.

Results

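The 10 genes described here are the mouse genes for the insulin-like growth factor (IGF) ligands, receptors and binding proteins: Igf1, Igf2, Igf1r, Igf2r and Igfbp2 to Igfbp7. They were taken by name from the 54532 genes of the count table, with earlier results of these data known. Of the 10 genes, 9 passed the filter on low counts that left 15564 genes for testing. Igfbp6 did not pass it. The genes were measured by bulk RNA-seq in lung endothelial cells (ECs) of WT C57BL/6J pups on day 14 after birth. Normoxia pups lived in room air (21% O2) and hyperoxia pups in 80% O2 from day 0 to day 14, a mouse model of bronchopulmonary dysplasia, and each group had 4 libraries. Per the study's methods, lung cells were cleared of CD45-bearing leukocytes and then caught on beads against CD31, so each library is an isolate enriched for ECs and not a pure population. Whether a library came from a single pup or a pool is not given in the sources used here, and p-values measure the spread between these libraries, which may be technical in part.

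IGF1 and IGF2 are secreted growth factors that act mainly through the IGF1 receptor, a tyrosine kinase that feeds the PI3K-Akt and ERK cascades. The IGF2 receptor, also known as the cation-independent mannose phosphate receptor, takes IGF2 up for degradation and carries lysosomal enzymes. The IGF binding proteins (IGFBPs) hold the ligands outside the cell, lengthen their life or keep them from the receptor, and proteases that cut the IGFBPs free the ligand again. In the lung, IGF signalling is known for its part in alveolar and vessel growth after birth.

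CPM here means counts scaled to a common, TMM-normalized library size, and it serves to compare libraries for 1 gene. Levels of different genes are compared only as FPKM, which also divides by gene length. Fold changes are hyperoxia relative to normoxia. The test was edgeR's quasi-likelihood test, with p-values adjusted by the Benjamini-Hochberg method over all 15564 genes and a threshold of 0.05. Of the 9 genes tested, 7 passed, with 6 higher in hyperoxia (Igf1, Igf2r, Igfbp2, Igfbp3, Igfbp5 and Igfbp7) and 1 lower (Igf1r). The background is high in this comparison, since 35.6% of all genes tested passed, 18.5% higher and 17.1% lower. Igfbp2 and Igfbp3 also had a log2 fold change of at least 1, a combination reached by 6.98% of all genes tested (5.62% higher and 1.36% lower). The 4 libraries of one condition lay wholly on one side of the other 4 for 6 of the 9 genes, against 35.4% of all genes. The median log2 fold change of the 9 genes was 0.62, and that of all genes tested was -0.004.

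**Figure D1:**
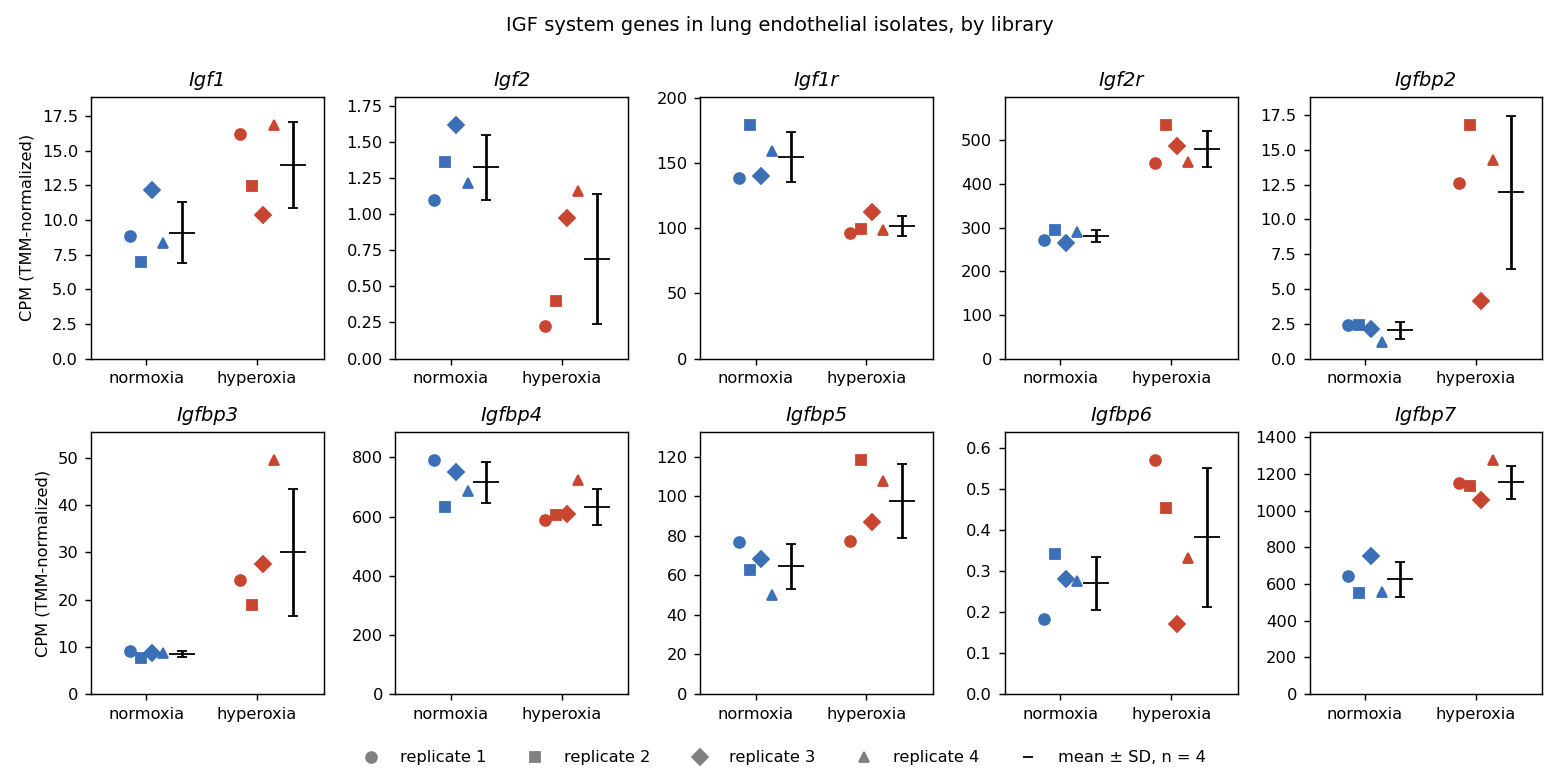
CPM of the 10 IGF system genes (y axis, starting at 0, with a scale of its own in each panel) in the 4 normoxia and 4 hyperoxia libraries (x axis), with a symbol for each replicate number and the mean ± SD (n = 4) at the right of each group. The groups are apart for Igf1r, Igf2r, Igfbp2, Igfbp3, Igfbp5 and Igfbp7, and hyperoxia 3 is far below the other hyperoxia libraries for Igfbp2.

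Libraries held 16098086 to 18300730 counts. The 8 EC markers listed for the check were all detected, with a summed level of 13254 to 13964 CPM in normoxia and 12492 to 13152 CPM in hyperoxia, so that all hyperoxia sums lay below all normoxia sums. Of these 8 markers 5 passed the test (62.5%, against 35.6% of all genes tested). Tek, Tie1 and Erg were lower (log2 fold changes -0.79, -0.18 and -0.25) and Kdr and Emcn higher (0.18 and 0.42). Pecam1, Cdh5 and Egfl7 did not pass (log2 fold changes -0.04, -0.03 and -0.04, adjusted p 0.558, 0.658 and 0.539). The mean of the sum went from 13499 to 12888 CPM, and that of Tek alone from 1182 to 682 CPM, so the lower sums lean on Tek. Markers of other lung cells were present too, and the counts called among them stand beside 18.5% of all genes tested called higher and 17.1% lower. All 6 markers of alveolar type 2 (AT2) cells, which make surfactant, were higher in hyperoxia, and their sum was 229 to 321 CPM in normoxia and 736 to 2225 CPM in hyperoxia. All 5 markers of alveolar type 1 (AT1) cells, the thin cells of gas exchange, were higher as well, with sums of 67.2 to 80.3 and 124 to 321 CPM. Of 7 fibroblast markers 6 were tested and 4 were higher (114 to 222 and 172 to 407 CPM), and 5 of 6 mural cell markers were higher (20.9 to 44.5 and 40.8 to 98.1 CPM). The 5 lymphatic EC markers were all higher (1248 to 1337 and 1871 to 2130 CPM), with groups that did not overlap for 2 of them (35.4% of all genes tested). Without hyperoxia 3, Lyve1 and Mmrn1 still passed (adjusted p 6.78e-06 and 0.0436). Prox1, Reln and Flt4 then missed the threshold (0.112, 0.0734 and 0.104). Of 6 leukocyte markers 1 was higher and 1 lower (136 to 270.3 and 179 to 459 CPM), a share of 33.3% that is near the 35.6% of all genes. Of 4 mesothelial markers 1 could be tested and was higher, with sums of 0.0552 to 0.735 and 0.859 to 1.998 CPM, and Upk3b had no count in hyperoxia. That marker, Msln, and the fibroblast marker Dcn, also called higher, entered the test through hyperoxia, where they are high. Each reached the filter's minimum in 1 normoxia library and in 4 hyperoxia libraries. Neither of the 2 airway markers that could be tested, of 4 listed, passed (1.53 to 3.20 and 2.44 to 3.14 CPM). Hyperoxia 3 stood apart, with the lowest AT2, AT1, fibroblast, mural, leukocyte and mesothelial sums of its group (736, 124, 172, 40.8, 179 and 0.859 CPM). It had the highest lymphatic sum (2130 CPM) and, by a small margin, the highest EC sum (13152 CPM, with hyperoxia 2 next at 13110 CPM). Values without it are therefore given beside each of the 7 IGF system genes that passed the test, and the pathway lists are given without it as counts, with values for some of their genes. The part of these other cells in the results was not tested, and in a bulk isolate fewer cells of a type and less RNA per cell cannot be told apart.

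**Figure D2:**
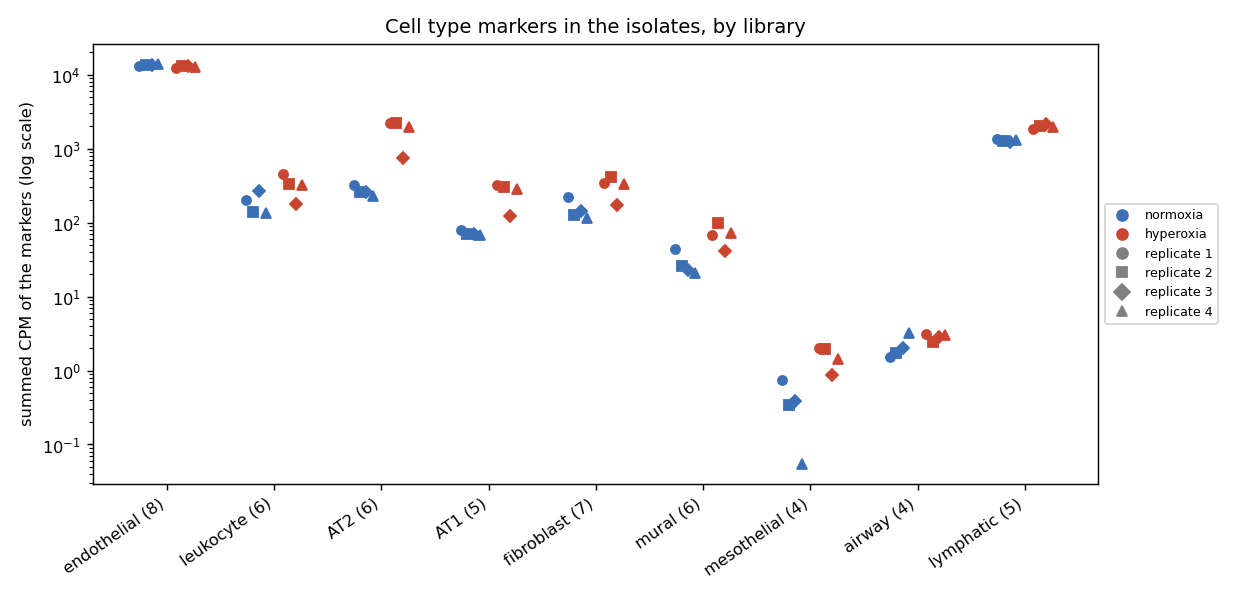
Summed CPM of each cell type's markers (y axis, log scale) in every library, with the number of markers in brackets on the x axis, normoxia in blue and hyperoxia in red. The AT2 and AT1 sums are higher in all hyperoxia libraries, with hyperoxia 3 the lowest of them at 736 and 124 CPM, while the endothelial sums are 13254 to 13964 CPM in normoxia and lower, 12492 to 13152 CPM, in hyperoxia.

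The promoters of 5 of the genes are shown because these genes separated the groups and kept their call in all 20 alternative analyses, Igf1r in the lower direction and the other 4 in the higher one. Igfbp5 did so too, with the smallest change, and is not shown. The sequences are from RefSeq (GRCm38.p6) and span 250 bases before to 50 bases after a transcription start, written 5′ to 3′ on the strand of the gene. Capitals mark matches, on either strand, to motifs chosen after the sequences had been seen: the GC box (GGGCGG), the E-box (CACGTG) and the letters TATATA. Of 32851 promoter windows of the same length in RefSeq, 35.7% hold the GC box, 7.15% the E-box and 5.67% TATATA. A match describes the letters only. The windows lie at chr1:72824230-72824529 on the plus strand (Igfbp2), chr11:7213874-7214173 on the minus strand (Igfbp3), chr5:77407996-77408295 on the minus strand (Igfbp7), chr17:12769657-12769956 on the minus strand (Igf2r) and chr7:67952007-67952306 on the plus strand (Igf1r).
Igfbp2: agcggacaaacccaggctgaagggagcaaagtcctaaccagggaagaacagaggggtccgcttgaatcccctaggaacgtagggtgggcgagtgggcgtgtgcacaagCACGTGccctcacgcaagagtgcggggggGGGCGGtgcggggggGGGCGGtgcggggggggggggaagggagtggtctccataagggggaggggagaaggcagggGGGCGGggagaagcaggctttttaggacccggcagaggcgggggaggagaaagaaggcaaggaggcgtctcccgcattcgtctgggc
Igfbp3: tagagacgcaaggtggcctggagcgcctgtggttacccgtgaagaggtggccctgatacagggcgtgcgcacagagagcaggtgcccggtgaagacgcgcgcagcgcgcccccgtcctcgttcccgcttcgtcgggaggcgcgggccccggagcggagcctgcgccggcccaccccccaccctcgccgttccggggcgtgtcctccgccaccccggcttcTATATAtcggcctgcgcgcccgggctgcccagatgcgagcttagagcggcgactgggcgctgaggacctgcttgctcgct
Igfbp7: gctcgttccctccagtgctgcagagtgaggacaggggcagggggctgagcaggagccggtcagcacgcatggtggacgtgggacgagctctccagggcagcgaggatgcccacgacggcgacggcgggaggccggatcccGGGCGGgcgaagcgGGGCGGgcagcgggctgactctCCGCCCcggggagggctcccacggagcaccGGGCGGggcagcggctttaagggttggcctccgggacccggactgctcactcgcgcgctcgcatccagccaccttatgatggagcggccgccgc
Igf2r: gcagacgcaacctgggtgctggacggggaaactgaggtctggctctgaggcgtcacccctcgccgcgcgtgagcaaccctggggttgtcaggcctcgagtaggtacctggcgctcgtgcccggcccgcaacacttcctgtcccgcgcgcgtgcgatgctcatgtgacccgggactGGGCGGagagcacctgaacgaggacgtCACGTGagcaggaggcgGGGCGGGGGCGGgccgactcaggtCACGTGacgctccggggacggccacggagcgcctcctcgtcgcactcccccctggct
Igf1r: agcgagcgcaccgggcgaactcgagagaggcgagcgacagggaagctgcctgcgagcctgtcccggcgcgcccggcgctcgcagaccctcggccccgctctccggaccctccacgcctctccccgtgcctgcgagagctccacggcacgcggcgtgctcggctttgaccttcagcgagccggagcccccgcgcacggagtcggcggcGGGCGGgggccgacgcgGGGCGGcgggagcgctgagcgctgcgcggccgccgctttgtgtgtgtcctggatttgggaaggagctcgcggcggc
Igfbp2, Igfbp7, Igf2r and Igf1r have GC boxes in these windows, and the GC content is 67.0% for Igfbp2, 73.3% for Igfbp7, 70.7% for Igf2r and 76.0% for Igf1r. The Igfbp3 window has none, has a GC content of 71.7% and holds TATATA from position -30 relative to the start. The E-box is found in Igfbp2 (from -142) and at 2 places in Igf2r (from -48 and -7). Igf1r, which fell, thus has GC boxes as 3 of the 4 genes that rose do, and no searched motif is common to all 4. The start used for Igf1r lies 570 bases from the gene start in the files. Motif matches to TATAAA (13.6% of all windows) and to the core of the antioxidant response element, TGACNNNGC (12.4%), were searched too and are absent from these 5 windows. RefSeq has another start for Igfbp2, with a window at chr1:72825137-72825436 that is not shown and holds the core of the antioxidant response element from position 24 after its start.

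Of the ligands, Igf1 rose and Igf2 did not pass the test. Igf1 (ENSMUSG00000020053, chr10:87858265-87937042, GRCm38, plus strand) was at 8.82, 6.94, 12.1 and 8.34 CPM in normoxia 1 to 4 and at 16.2, 12.5, 10.4 and 16.9 CPM in hyperoxia 1 to 4. Normoxia 3 lay above hyperoxia 3, so the groups overlapped. The mean went from 9.06 ± 2.20 to 14.0 ± 3.09 CPM (SD, n = 4 each), a log2 fold change of 0.62 (SE 0.194, 95% CI 0.20 to 1.05) with an edgeR adjusted p of 0.028. The call for Igf1 was the least firm of the 7. It was lost without normoxia 1, 2 or 4 (adjusted p 0.06, 0.0754 and 0.0737) and without hyperoxia 1 or 4 (0.0688 and 0.0791), and was kept without hyperoxia 3, where the log2 fold change was 0.74 and the adjusted p 0.0109. In both groups Igf1 was a rare transcript of the isolate, at 0.908 ± 0.223 FPKM in normoxia and 1.40 ± 0.307 FPKM in hyperoxia.

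Igf2 (ENSMUSG00000048583, chr7:142650766-142666816, minus strand), the ligand of both receptors and an imprinted gene, had 18, 24, 29 and 22 counts in normoxia and 4, 7, 17 and 21 counts in hyperoxia. In CPM these were 1.10, 1.37, 1.62 and 1.22 against 0.228, 0.396, 0.973 and 1.16. Hyperoxia 1 and 2 were low and hyperoxia 4 lay above normoxia 1. The means were 1.33 ± 0.225 and 0.691 ± 0.449 CPM, and the log2 fold change was -0.93 (SE 0.418, 95% CI -1.86 to -0.0098) with an adjusted p of 0.107. It reached 0.0465 when hyperoxia 4 was left out (log2 fold change -1.31). Igf2 passed the filter through its normoxia counts. Its count is uncertain, because Gm49394 on the same strand shares 3596 of its 5723 exon bases (62.8%) and Igf2os on the other strand shares 98 (1.71%). Gm49394 itself had no counts and Igf2os had 40 over the 8 libraries. H19, the imprinted non-coding RNA that lies 72622 bases away on the same strand, is described with the handling genes below.

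The receptors changed in opposite directions. Igf1r (ENSMUSG00000005533, chr7:67952827-68233668, plus strand), the receptor that signals for both ligands, was at 139, 179, 140 and 159 CPM in normoxia and at 95.9, 99.7, 113 and 98.7 CPM in hyperoxia. Every hyperoxia library lay below every normoxia library, and the highest of them was hyperoxia 3. The mean fell from 154 ± 19.2 to 102 ± 7.38 CPM (SD, n = 4 each), a fold of 0.659, with a log2 fold change of -0.60 (SE 0.0852, 95% CI -0.79 to -0.41) and an adjusted p of 0.000333. Without hyperoxia 3 the log2 fold change was -0.65 and the adjusted p 0.000275.

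Igf2r (ENSMUSG00000023830, chr17:12682406-12769664, minus strand) was at 272, 295, 264 and 290.0 CPM in normoxia and at 447, 536, 487 and 450.3 CPM in hyperoxia. The lowest hyperoxia library was far above the highest normoxia library, and hyperoxia 3 was within the range of its group. From 280.4 ± 14.5 CPM the mean rose to 479.9 ± 41.3 CPM, 1.71-fold, with a log2 fold change of 0.78 (SE 0.0656, 95% CI 0.63 to 0.92) and an adjusted p of 9.66e-06. Leaving out hyperoxia 3 gave a value of 0.77 and an adjusted p of 3.07e-05. Airn, the imprinted antisense RNA known to silence the paternal Igf2r allele, overlaps the gene without sharing exon bases. Its level was 23.7 ± 4.91 CPM in normoxia and 25.7 ± 1.92 CPM in hyperoxia. It did not pass the test (log2 fold change 0.12, adjusted p 0.516). Igf2r is also the most abundant of the 4 ligand and receptor genes per length, at 29.9 ± 1.46 FPKM in normoxia and 51.3 ± 4.56 FPKM in hyperoxia, against 9.11 ± 1.10 and 6.03 ± 0.451 FPKM for Igf1r.

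The largest changes of the 9 tested genes were those of Igfbp2 and Igfbp3. Igfbp2 (ENSMUSG00000039323, chr1:72824503-72852474, plus strand), a secreted carrier that is also a known product of AT1 cells, had 39, 42, 38 and 21 counts in normoxia and 221, 297, 72 and 257 counts in hyperoxia. In CPM it was at 2.39, 2.39, 2.13 and 1.16 against 12.6, 16.8, 4.12 and 14.3. The groups did not overlap, but hyperoxia 3 lay much nearer to normoxia than the other 3. The mean went from 2.02 ± 0.584 to 11.95 ± 5.50 CPM (SD, n = 4 each), a fold of 5.93 (95% CI 3.23 to 10.9), and the log2 fold change was 2.57 (SE 0.397, adjusted p 0.000581). Without hyperoxia 3 the log2 fold change was 2.85 and the adjusted p 6.53e-06. The library that was low for Igfbp2 was also the lowest of its group for the AT1 sum (124 CPM against 288 to 321 CPM in the others). It was the lowest for the AT2, fibroblast, mural, leukocyte and mesothelial sums as well, so this was not particular to AT1 markers. The mean AT1 sum was 3.59 times and the mean AT2 sum 6.64 times as high in hyperoxia as in normoxia. The part of AT1 or other cells in the Igfbp2 value was not tested.

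Igfbp3 (ENSMUSG00000020427, chr11:7206086-7213923, minus strand), the main IGF carrier of serum, was at 9.12, 7.62, 8.62 and 8.62 CPM in normoxia and at 24.2, 18.9, 27.5 and 49.5 CPM in hyperoxia. Normoxia libraries were close together, with a coefficient of variation of 7.39%, and the hyperoxia libraries were spread widely (44.9%) with hyperoxia 4 at the top. The mean rose from 8.50 ± 0.628 to 30.03 ± 13.5 CPM, 3.54-fold (95% CI 2.38 to 5.26), and the log2 fold change was 1.82 (SE 0.259, adjusted p 0.000334). Leaving out hyperoxia 4 lowered the fold to 2.77 (log2 1.47, adjusted p 3.75e-05), and leaving out hyperoxia 3 gave a log2 fold change of 1.86 (adjusted p 0.000609). Hyperoxia 3 had the second highest Igfbp3 level. Its AT2 and AT1 sums (736 and 124 CPM) were the lowest of the hyperoxia libraries but above every normoxia library (at most 321 and 80.3 CPM), and the part of these cells in the Igfbp3 value was not tested.

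Igfbp4 (ENSMUSG00000017493, chr11:99041244-99054392, plus strand), which restrains IGF action until it is cut by the protease PAPP-A, did not pass the test. It was at 791, 633, 750.1 and 687 CPM in normoxia and at 589.8, 605, 610.4 and 724 CPM in hyperoxia. Hyperoxia 4 lay among the normoxia libraries, and the other 3 lay below all of them. The means were 715 ± 69.5 and 632 ± 61.9 CPM, with a log2 fold change of -0.18 (SE 0.0827, 95% CI -0.36 to 0.0048) and an adjusted p of 0.119. The adjusted p passed the threshold without normoxia 2 (0.0462) and without hyperoxia 4 (0.0318, log2 fold change -0.25).

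Igfbp5 (ENSMUSG00000026185, chr1:72857932-72874884, minus strand), an IGFBP that binds extracellular matrix, was at 77.1, 62.5, 68.5 and 50.3 CPM in normoxia and at 77.3, 118, 87.0 and 108 CPM in hyperoxia. Normoxia 1 and hyperoxia 1 almost touched, though the groups did not overlap. From 64.6 ± 11.3 CPM the mean rose to 97.5 ± 18.7 CPM, 1.51-fold, with a log2 fold change of 0.60 (SE 0.148, 95% CI 0.27 to 0.92) and an adjusted p of 0.00965. The values without hyperoxia 3 were 0.65 and 0.0104. Igfbp5 lies beside Igfbp2 on chromosome 1, on the opposite strand, with 5457 bases between the genes.

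Igfbp6 (ENSMUSG00000023046, chr15:102144362-102149511, plus strand), an IGFBP with a preference for IGF2, had 3, 6, 5 and 5 counts in normoxia and 10, 8, 3 and 6 counts in hyperoxia. These counts are too few to show a difference, and the groups overlapped. Without the filter its log2 fold change was 0.50 (unadjusted p 0.362, adjusted p 0.566).

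Igfbp7 (ENSMUSG00000036256, chr5:77349240-77408041, minus strand), a vascular protein that binds IGFs weakly and is abundant in ECs, was at 644, 551, 754 and 556 CPM in normoxia and at 1154, 1133, 1058 and 1277 CPM in hyperoxia. All hyperoxia libraries were above all normoxia libraries, and hyperoxia 3 was the lowest of them. The mean rose from 626 ± 95.3 to 1155 ± 90.6 CPM, 1.85-fold, with a log2 fold change of 0.88 (SE 0.0992, 95% CI 0.66 to 1.10) and an adjusted p of 7e-05. Without hyperoxia 3 these were 0.92 and 0.000113. Polr2b on the other strand shares 85 of the 1209 exon bases of Igfbp7 (7.03%). Its own level was 68.5 ± 1.32 CPM in normoxia and 75.1 ± 1.81 CPM in hyperoxia, a log2 fold change of 0.13 (adjusted p 0.028).

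**Figure D3:**
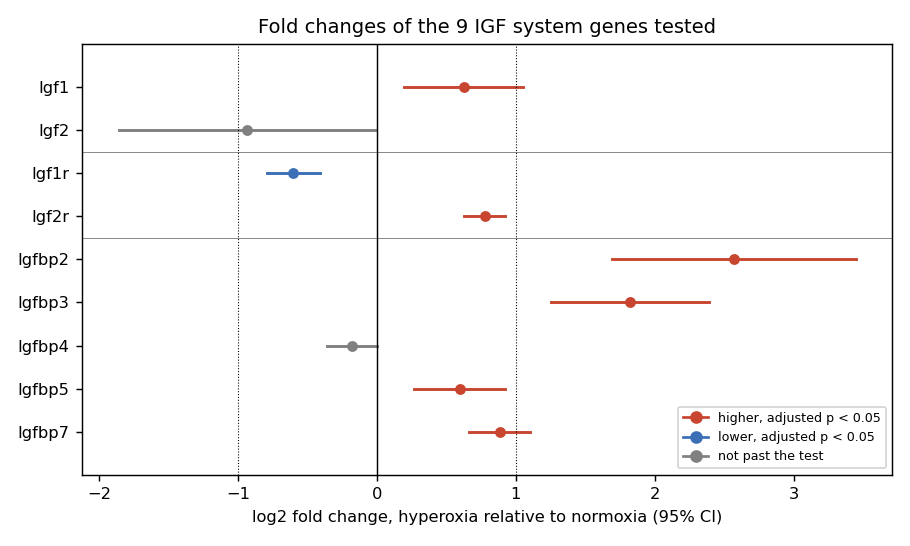
Log2 fold change with 95% CI (x axis, hyperoxia relative to normoxia) of the 9 tested IGF system genes, ordered as ligands, receptors and binding proteins, coloured by whether the adjusted p passed 0.05. The intervals of Igfbp2 (1.69 to 3.45) and Igfbp3 (1.25 to 2.39) lie wholly above a log2 fold change of 1, and Igf1r is the only gene called lower.

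Per length, the order of the genes in normoxia was Igfbp7 (514 ± 79.3 FPKM), Igfbp4 (161 ± 16.2), Igf2r (29.9 ± 1.46), Igfbp5 (10.7 ± 1.88), Igf1r (9.11 ± 1.10), Igfbp3 (2.69 ± 0.209), Igfbp2 (1.08 ± 0.313), Igf1 (0.908 ± 0.223), Igfbp6 (0.241) and Igf2 (0.230). Igfbp5 and Igf1r overlapped over the 4 libraries, as did Igfbp2 and Igf1, and Igfbp6 and Igf2. The place of Igf2 is uncertain, because its FPKM divides by all 5723 exon bases and 3596 of them are shared with Gm49394. If reads in the shared bases were not counted, the Igf2 level is too low, which was not tested. In hyperoxia the first 4 kept their order, at 950.4 ± 72.7, 142 ± 13.8, 51.3 ± 4.56 and 16.2 ± 3.13 FPKM. Igfbp3 (9.54 ± 4.27) and Igfbp2 (6.44 ± 2.96) came next and Igf1r (6.03 ± 0.451) followed them, although the neighbours from Igfbp5 to Igf1r overlapped. Igf1r thus moved from place 5 to place 7 by its mean. Igfbp7 was already among the most abundant transcripts of the isolate, at rank 38 of all genes by mean FPKM in normoxia and rank 15 in hyperoxia.

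The make-up of the IGFBP transcripts can be described as shares of their summed FPKM. The sum over Igfbp2 to Igfbp7 was 689 ± 93.0 FPKM in normoxia (605 to 804) and 1125 ± 91.0 FPKM in hyperoxia (1036 to 1253). Igfbp7 held 74.4 ± 1.84% of it in normoxia and 84.5 ± 0.772% in hyperoxia, with ranges of 73.1 to 77.1% and 83.7 to 85.5% that did not overlap. Igfbp4, whose own level did not pass the test, went from 23.4 ± 1.74% to 12.7 ± 0.605% (21.0 to 24.8% and 11.97 to 13.3%). The other genes stayed small. Igfbp3 and Igfbp2 held 0.394% and 0.158% in normoxia and 0.834% and 0.565% in hyperoxia, so the binding proteins with the largest folds were a minor part of the sum. Shares of 1 sum are not independent of each other, and no test was run on them.

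**Figure D4:**
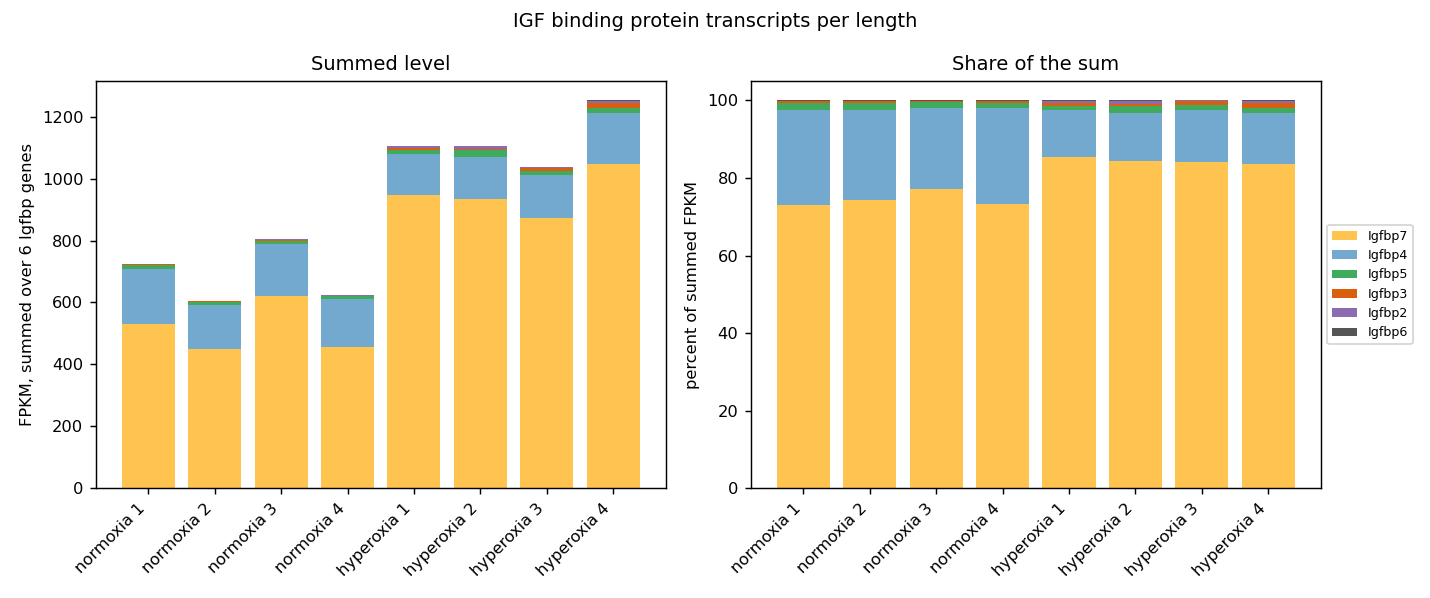
FPKM of the 6 Igfbp genes stacked by library (left, y axis in FPKM from 0) and as percent of their sum (right), with the libraries on the x axis. The summed level is 605 to 804 FPKM in normoxia and 1036 to 1253 FPKM in hyperoxia, and Igfbp7 takes a larger and Igfbp4 a smaller share in hyperoxia.

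For each tested gene, the 3 genes with the most similar pattern were found by Pearson's r of log2 CPM over the 8 libraries, among genes of at least 10 mean CPM. The points share the difference between the groups, so r describes likeness only. Nearest to Igfbp2 were Ptprf (r = 0.993), Aqp5 (0.990) and Dram1 (0.989), and Aqp5 is 1 of the 5 AT1 markers above. Nearest to Igfbp3 were Atp6ap2 (0.966), Zfp408 (0.966) and Tmem5 (0.964). The genes most like Igf1r were Chd6 (0.998), Fat4 (0.994) and Dock9 (0.994), and those most like Igf2r were Plekhb2, Mmrn2 and Adgrg3 (0.992 each). Mmrn2 encodes an EC matrix protein. Igfbp7 was closest to Tnfrsf21 (0.9965), Camk2n1 (0.995) and Atp6v0e2 (0.994). For Igf1 they were Bex3 (0.986), Ednrb (0.985) and Erp29 (0.981), and for Igf2 Eef2k (0.961), Rab3gap1 (0.958) and Llph (0.945). Igfbp4 was most like Nipsnap2 (0.963), Sulf1 (0.961) and Cytl1 (0.957), and Igfbp5 most like Cyb5r1 (0.9895), Atmin (0.983) and P3h3 (0.977).

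Other genes that handle IGFs or IGFBPs were listed separately: insulin family ligands and receptors, proteases, carriers, inhibitors and RNA-binding proteins. Of the 19 listed, 16 had a count, 9 could be tested and 7 passed (77.8%, against 35.6% of all genes), 6 higher and 1 lower, with a median log2 fold change of 0.58. Pappa2, the protease that cuts IGFBP3 and IGFBP5, was at 1.41, 0.285, 0.783 and 0.773 CPM in normoxia and at 6.74, 6.85, 2.29 and 6.82 CPM in hyperoxia. It was low in every normoxia library, and hyperoxia 3 was again the lowest of its group. The log2 fold change was 2.81 (SE 0.439, adjusted p 0.00063), and 3.07 without hyperoxia 3 (adjusted p 6.21e-05). Pappa2 entered the test through hyperoxia, where it is high, since only 3 of 4 normoxia libraries reached the filter's minimum of 0.566 CPM and 4 were needed. Stc1, an inhibitor of the PAPP-A proteases, rose from 27.4 ± 7.56 to 47.1 ± 5.60 CPM (log2 0.78, adjusted p 0.00446). Lrp1, an endocytic receptor that also binds IGFBP3, rose from 28.5 ± 7.69 to 63.3 ± 18.4 CPM (1.15, 0.00341), with hyperoxia 3 at 36.1 CPM, and its log2 fold change was 1.34 when that library was left out (adjusted p 0.00019). Ctsd, a lysosomal protease carried by the IGF2 receptor, rose from 171 ± 15.0 to 255 ± 21.5 CPM (0.58, 0.000208). Igf2bp2 and Igf2bp3, which bind Igf2 mRNA, rose by log2 fold changes of 1.21 and 0.53 (adjusted p 0.00708 and 0.019). Insr, the insulin receptor and the closest relative of Igf1r, was at 129 ± 13.5 and 138.5 ± 11.7 CPM and did not pass (log2 0.10, adjusted p 0.36), and neither did Tmem219, a cell surface protein that binds IGFBP3 (-0.20, 0.242). The 7 genes of this list that passed also passed without hyperoxia 3.

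H19 was the gene of this list that fell. It was at 72.1, 102, 151 and 97.2 CPM in normoxia and at 18.8, 21.6, 27.0 and 32.6 CPM in hyperoxia. All hyperoxia libraries lay far below all normoxia libraries. The mean went from 106 ± 32.9 to 25.0 ± 6.10 CPM, and the log2 fold change was -2.08 (SE 0.223, adjusted p 5.24e-05). H19 and Igf2 are a reciprocally imprinted pair on chromosome 7, and for Igf2 the log2 fold change given above was -0.93 without passing the test.

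The list of 11 genes whose proteins carry an IGFBP-type domain, but which are not classed as IGFBPs here, had 8 tested members, of which 5 passed (62.5%, against 35.6% of all genes), 4 higher and 1 lower, with a median log2 fold change of 0.59. Ctgf, a matricellular growth regulator, was at 75.6, 63.3, 63.9 and 53.7 CPM in normoxia and at 322, 203, 182.5 and 201 CPM in hyperoxia. The groups were far apart, with hyperoxia 1 the highest. Its mean rose from 64.1 ± 8.95 to 227 ± 63.8 CPM (log2 1.825, SE 0.172, adjusted p 2.06e-05). Its relative Cyr61 rose less, from 230.4 ± 26.7 to 285 ± 27.8 CPM (log2 0.31, adjusted p 0.0212), with groups that overlapped. Without hyperoxia 3 Cyr61 missed the threshold (log2 0.27, adjusted p 0.0523), and the other 4 genes still passed. Htra3, a secreted serine protease, and Wisp1, of the same family as Ctgf, rose by log2 fold changes of 1.78 and 1.11 (adjusted p 0.0094 and 0.0197) at low levels and with overlapping groups. Htra3 had 4, 5, 16 and 12 counts in normoxia and 15, 36, 33 and 45 in hyperoxia, and it too entered the test through the group where it is high, since 2 normoxia libraries reached the filter's minimum. Esm1, an EC proteoglycan of tip cells, fell from 60.0 ± 12.7 to 36.0 ± 4.03 CPM (log2 -0.74, adjusted p 0.00234). Htra1 was at 35.7 ± 7.90 and 46.2 ± 10.4 CPM and did not pass (log2 0.38, adjusted p 0.119).

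Of 35 genes that act downstream of the IGF1 and insulin receptors, 33 were tested and 19 passed, 6 higher and 13 lower, which is 57.6% of those tested against 35.6% of all genes. None of them reached a log2 fold change of 1 in either direction, and the median was -0.05. Among the most abundant, Rps6, a ribosomal protein and target of the S6 kinases, fell from 607 ± 42.4 to 496 ± 11.96 CPM (log2 -0.29, adjusted p 0.00191). Grb10, an adaptor that dampens both receptors, fell from 193 ± 6.03 to 173 ± 5.09 CPM (-0.16, 0.0136). Akt1, the central kinase of the cascade, was at 346 ± 9.36 and 334 ± 5.65 CPM and did not pass (-0.05, 0.373). Among genes named after their values were seen, the forkhead factors that Akt keeps out of the nucleus went in different directions, since Foxo4 and Foxo1 fell (log2 -0.41 and -0.39, adjusted p 4.97e-05 and 0.00304) and Foxo3 rose (0.38, 0.00234). Irs2, a docking protein of the receptors, was at 10.7 ± 3.35 and 16.5 ± 4.28 CPM and did not pass (log2 0.62, adjusted p 0.0694). Without hyperoxia 3 it did (0.80, 0.0137), and 18 of the 19 genes that had passed did so again, Gsk3a being the exception (adjusted p 0.0644).

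**Figure D5:**
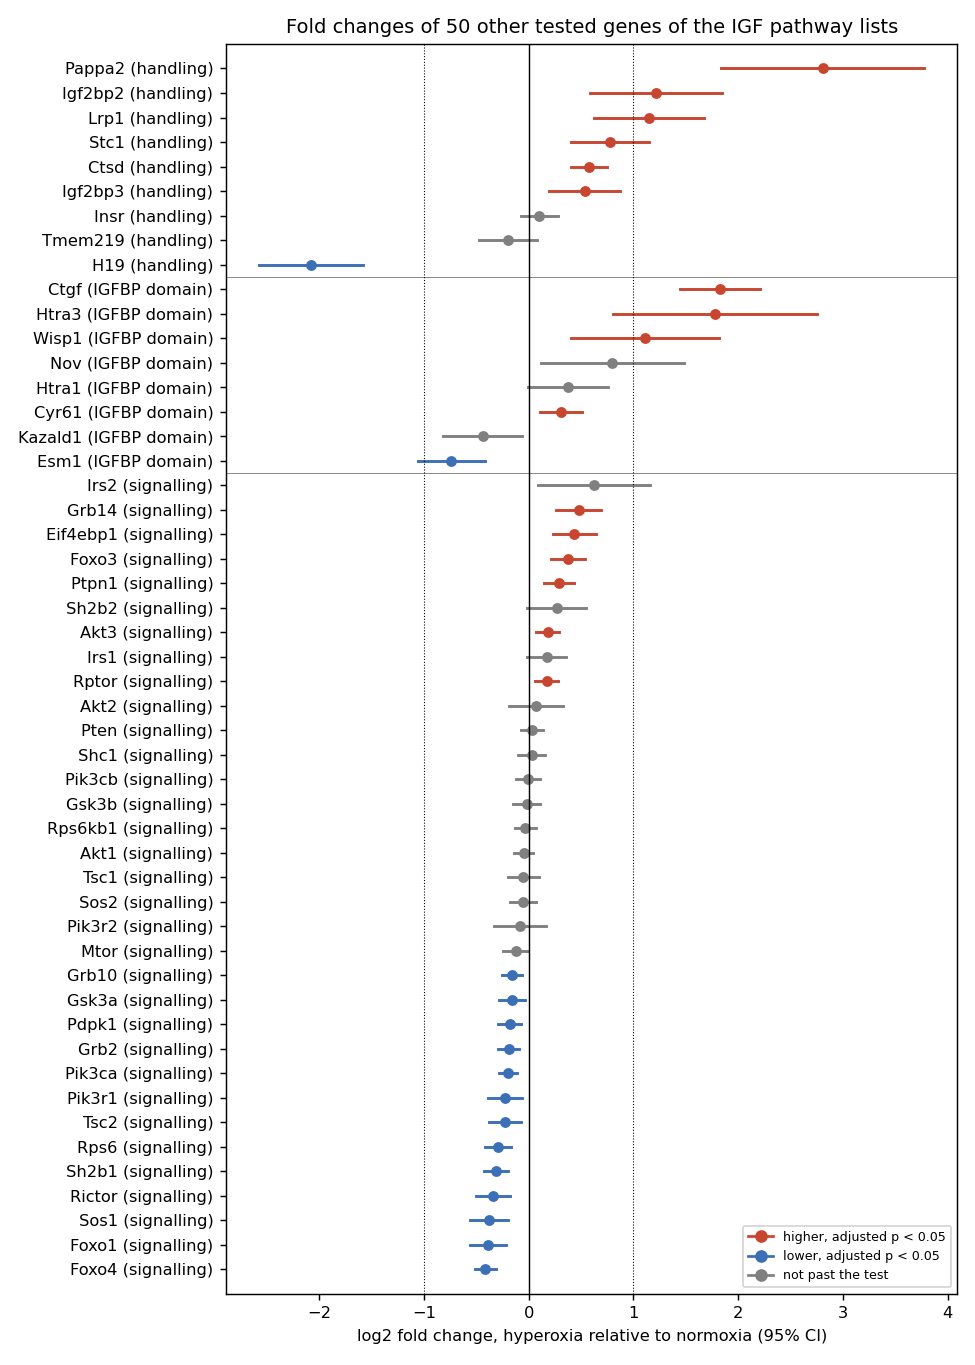
Log2 fold change with 95% CI (x axis, hyperoxia relative to normoxia) of the tested genes of the handling, IGFBP-domain and receptor signalling lists, sorted within each list and coloured by whether the adjusted p passed 0.05, with dotted lines at -1 and 1. The largest values are Pappa2 (2.81) and H19 (-2.08), both handling genes, while the points of the signalling genes lie between the dotted lines.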

How the data were processed

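Bulk RNA-seq was made from 8 libraries. The submitters' processing notes name mouse build mm10 and the tools HISAT2 2.0.5 and featureCounts 1.5.0-p3. The strand setting and the handling of multi-mapped reads are not given in the sources used here. The authors deposited whole-number gene counts and, in a further table, FPKM values, which matched counts over length and depth up to 1 constant per library (0.974 to 1.02). Groups came from the sample titles and treatment labels.

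From the counts, edgeR 4.0.16 in R 4.3.3 was run with TMM, filterByExpr (minimum count 10), the group as the only term and its quasi-likelihood test, adjusted by Benjamini-Hochberg. Kept genes held at least 99.8% of the counts of each library. Replicates varied beyond counting noise (chi-square per degree of freedom 5.08 to 18.0). That spread may be technical in part and does not show whether the libraries are biological replicates. Each library was kept as a replicate, and intervals are 95% intervals of the fit. Scripts were tested on simulated data. DESeq2 1.42.0, limma 3.58.1 (voom and log2 FPKM), other scalings and filters, protein-coding genes only, the replicate number as a block and leaving out each library were alternatives.

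The genes described, the pathway and marker lists and the motifs were chosen with earlier results of these data known. Named were all 10 members, genes overlapping them, each list's genes past adjusted p 0.05 and a log2 fold change of 1 in size, its 3 most abundant genes and the 3 genes most similar to each tested member. Of the overlapping genes, Igf1os (over Igf1), Mir483 (over Igf2) and Gm34648 (over Igfbp7) share no exon bases with these members. They had 1, 6 and 32 counts over the 8 libraries. Markers are given as sums, and single markers and other pathway genes in the text were named after their values were seen. Coordinates are those of the files, and all 10 members have the same ones in GENCODE M21. RefSeq promoters matched 10 of 10 members.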

Additional observations from a re-analysis of the deposited data

Results flagged for a closer look

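Of 38 groups of 4 libraries in which the highest and lowest values were compared with the rest, 2 held a value set far apart, and chance alone gives about 1.9. Igfbp4 was at 724 CPM in hyperoxia 4, against 589.8 to 610.4 CPM in the remaining libraries of its group. The AT1 marker sum was 124 CPM in hyperoxia 3, against 288 to 321 CPM in the others.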

How the results depend on the processing

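Igf1r, Igf2r, Igfbp2, Igfbp3, Igfbp5 and Igfbp7 kept their direction and their call in all 20 alternatives, and none of the 9 tested genes changed sign. Igf1 missed the threshold in 8 of 20, among them log2(FPKM + 0.1) (adjusted p 0.0506), the same without a filter (0.12) and 5 of the 8 fits without a library. Igf2 passed in 1 alternative and Igfbp4 in 2, all of them fits without a library. The number of genes called among the 9 was 6 to 8 when each library was left out in turn, and 2 to 3 with a log2 fold change of at least 1. All genes past that double threshold numbered 330 on log2(FPKM + 1), against 1087, and the IGFBP-domain genes past adjusted p 0.05 numbered 2 on log2(FPKM + 0.1) without a filter, against 5. In both the cause was not tested. The share of calls in the higher direction was 46.6 to 56.7% over the settings.

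The labels number the replicates alike in both groups, but deviations of same-numbered libraries from their group means did not go together (r = 0.11, 0.04, -0.14 and -0.17), so the numbers were not taken as pairs. With the replicate number as a block, 6 of the 9 genes passed and Igf1 had an adjusted p of 0.051.

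Counts of Igf2 and Igfbp6 are low in all libraries, which limits what can be seen of them.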

Other observations

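Several IGF genes of the handling list were too rare to be tested. Igf2bp1, an RNA-binding protein of fetal tissues, had 3, 0, 1 and 2 counts in normoxia and 12, 7, 5 and 7 counts in hyperoxia. Igfals, which encodes the acid-labile subunit that joins IGF and IGFBP3 in serum, had 0, 3, 0 and 0 counts in normoxia and 9, 5, 1 and 8 in hyperoxia. Igfbp1, which lies 3539 bases from Igfbp3 on chromosome 11, had 2 counts in all, both in hyperoxia 3. Pappa, the gene of PAPP-A, had 2, 3, 9 and 2 counts in normoxia and 1, 7, 8 and 10 in hyperoxia. Ins1, Ins2 and Mmp7 had no counts in these libraries. The genes were named after their values were seen.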
